A study of Mus musculus with 72 samples.

Results

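Acute phase proteins are the plasma proteins whose synthesis in the liver changes most during inflammation, and 10 of their genes were followed here: the serum amyloid A genes Saa1, Saa2, Saa3 and Saa4, the orosomucoid genes Orm1 and Orm2, haptoglobin (Hp), hemopexin (Hpx), lipocalin 2 (Lcn2) and inter-alpha-trypsin inhibitor heavy chain 3 (Itih3). They were taken by gene symbol from a table of 27846 genes, each symbol matched 1 row, and all 10 were among the 15066 genes that passed the filter on low counts. The livers came from wild type C57bl6 mice of both sexes, aged 8 to 16 weeks, housed with 12 h of light and 12 h of dark and free access to food. Every mouse, control or misaligned, was moved from chow to a diet in which fat supplied 42% of the calories when the paradigm began. Misaligned mice had been kept under chronic circadian misalignment, whose schedule the labels do not describe, and the labels do not say how the stated clock time of a misaligned mouse related to its light cycle on the day of collection. Livers were collected after perfusion at 0, 4, 8, 12, 16 and 20 h, and 3 mice were used for each combination of sex, treatment and time, which gave 72 libraries in 24 groups, or 18 livers per sex and treatment.

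Poly(A) RNA of whole liver was sequenced from both ends with a stranded kit. A library held 11551524 to 12529963 gene counts, with a median of 12005221, and 18013 to 19246 genes had at least 1 count. Levels are given in CPM, a gene's read count relative to the library size after scaling by the trimmed mean of M values. No library was identical to another, and 0 libraries went against their sex label. Hepatocyte markers, albumin included, were high in all 4 sets of livers. In bulk tissue, fewer cells of a type and less RNA per cell cannot be told apart.

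The acute phase response is driven in hepatocytes mainly by interleukin 6, acting through its receptor, JAK kinases and STAT3, and by interleukin 1 and tumour necrosis factor, acting through NF-kappaB, with C/EBP factors and the glucocorticoid receptor adding to both. Saa1 and Saa2 encode the main acute phase apolipoproteins of high-density lipoprotein in the mouse, Saa3 is made in macrophages and adipocytes as well as in hepatocytes, and Saa4 is the constitutive member of the family. The orosomucoids are acidic glycoproteins that carry small molecules in plasma, haptoglobin and hemopexin capture free haemoglobin and haem, lipocalin 2 withholds iron from bacteria by binding their siderophores, and Itih3 encodes a chain of the proteins that stabilise hyaluronan matrix.

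Per kilobase of transcript, the scavengers of haem and haemoglobin were the most abundant members and Saa3 the least. Lengths were those of 1 GENCODE transcript per gene, such as 609 bases for Saa1 and 2094 for Saa4. Before this division, the median was 290 CPM for Saa4 and 127 CPM for Saa1, the reverse of their order per kb. The median over 72 livers was 3009 CPM per kb for Hpx, 2520 for Hp and 923 for Orm1. It was 215 CPM per kb for Itih3, 208 for Saa1, 139 for Saa4 and 132 for Saa2. Orm2 followed with 49.1 CPM per kb, Lcn2 with 48.8 and Saa3 with 10.6. Only Orm1 and Itih3 were neighbours in this order whose ranges over the livers did not overlap (646 to 1855 against 113 to 642 CPM per kb), and the other 8 neighbouring pairs overlapped. Itih3 exceeded Saa1 in 35 of 72 livers, Saa4 exceeded Saa2 in 37 and Orm2 exceeded Lcn2 in 36, so the order within these 3 pairs did not hold from liver to liver. Orm1 stood at 715 CPM and its neighbour Orm2 at 38.1 CPM in the median liver. Transcripts of these 2 genes were 91.0% identical and shared 47 of 676 windows of 100 bases, so their counts can be less certain than those of other members: the larger of the deposited count versions (MAX) held 10.2% more counts for Orm2 and under 1% more for the others.

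The members differed widely in how far they ranged between livers. Saa2 ran from 10.3 to 1556 CPM, a 151-fold range, Lcn2 from 6.67 to 592 CPM (88.8-fold) and Saa1 from 24.2 to 2002 CPM (82.9-fold). Saa3 ran from 1.61 to 78.1 CPM (48.5-fold) and Orm2 from 10.5 to 271 CPM (25.7-fold). The other members stayed within 2.87-fold (Orm1, 501 to 1437 CPM) to 5.70-fold (Itih3, 337 to 1922 CPM), with Saa4 at 157 to 490 CPM, Hpx at 2859 to 9225 CPM and Hp at 1396 to 6309 CPM. The liver of misaligned female replicate 1 at 20 h was the highest of all 72 for 8 of the 10 members. The exceptions were Saa4, highest in control male replicate 3 at 16 h, and Saa3, highest in control female replicate 1 at 16 h. At the other end, control male replicate 2 at 16 h was the lowest liver for Saa1, Saa2, Orm2 and Lcn2.

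The promoters of the 5 widely ranging members are shown because these genes had the widest ranges between livers. Each sequence is the 250 bases upstream of the transcript start in RefSeq (build GRCm38.p6), 5′ to 3′ on the gene's strand, and capitals mark each match to TTGCNNAA, the core letters of a C/EBP site, on either strand. They lie at chr7:46742981-46743230 (minus strand) for Saa1, chr7:46751583-46751832 (plus) for Saa2, chr7:46715677-46715926 (minus) for Saa3, chr4:63362199-63362448 (plus) for Orm2 and chr2:32387740-32387989 (minus) for Lcn2.
Saa1: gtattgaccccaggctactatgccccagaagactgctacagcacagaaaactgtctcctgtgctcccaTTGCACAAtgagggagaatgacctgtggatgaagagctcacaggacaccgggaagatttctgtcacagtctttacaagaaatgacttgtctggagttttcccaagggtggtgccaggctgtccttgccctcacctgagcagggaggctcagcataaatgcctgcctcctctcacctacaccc
Saa2: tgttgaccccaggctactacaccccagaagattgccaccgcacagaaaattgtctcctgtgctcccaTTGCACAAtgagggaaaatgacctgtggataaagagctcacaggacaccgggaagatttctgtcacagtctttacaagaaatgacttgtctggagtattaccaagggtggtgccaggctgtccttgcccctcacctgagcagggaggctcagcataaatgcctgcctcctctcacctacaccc
Saa3: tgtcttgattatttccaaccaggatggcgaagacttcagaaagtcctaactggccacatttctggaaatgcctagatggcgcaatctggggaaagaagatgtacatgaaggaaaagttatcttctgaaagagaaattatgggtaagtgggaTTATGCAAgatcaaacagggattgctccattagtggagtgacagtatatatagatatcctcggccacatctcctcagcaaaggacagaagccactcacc
Orm2: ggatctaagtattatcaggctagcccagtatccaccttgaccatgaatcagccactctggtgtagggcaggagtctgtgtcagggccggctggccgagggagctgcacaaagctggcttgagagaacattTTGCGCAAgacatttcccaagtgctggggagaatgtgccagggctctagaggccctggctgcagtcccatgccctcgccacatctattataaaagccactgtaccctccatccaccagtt
Lcn2: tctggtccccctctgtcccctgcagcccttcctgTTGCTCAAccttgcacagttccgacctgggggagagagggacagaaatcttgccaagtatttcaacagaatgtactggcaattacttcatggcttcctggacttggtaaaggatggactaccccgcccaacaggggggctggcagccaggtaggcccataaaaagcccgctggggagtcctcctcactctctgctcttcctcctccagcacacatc

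RefSeq windows of 300 bases around the start were available for 8 of the 10 members, all but Orm1 and Hp. TTGCNNAA, searched on both strands, was present in 7 of these 8 (Itih3 had none) and in 10.8% of the 32851 windows searched for all genes. Counted in bases from the transcript start, it began at position -182 in Saa1, -183 in Saa2, -99 in Saa3, -120 in Orm2, -216 in Lcn2 and -200 in Hpx, and at -245 and -52 in Saa4. An NF-kappaB motif of 10 bases was in 0 of the 8 windows and in 1.63% of all. TTCNNNGAA, letters of a STAT site, was in 0 of 8 and in 8.30% of all. CTGGGA, the core of an IL-6 response element, was in 1 of 8 (Saa3) and in 31.8% of all. The clock-related letters CACGTG and TTANGTAA were in 0 of 8, against 7.15% and 2.32% of all windows. A match describes letters only and is no measure of binding, and the capitals of Saa3 lie on the reverse strand, as does the start-proximal match in Saa4, whose promoter is not shown. Saa1 and Saa2 windows were identical at 287 of 299 aligned bases (96.0%), while Saa1 and Saa3 were identical at 61.0%. Their transcripts were 94.4% identical but shared 0 of 510 windows of 100 bases, so that a read of that length could be assigned to Saa1 or Saa2.

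**Figure D1:**
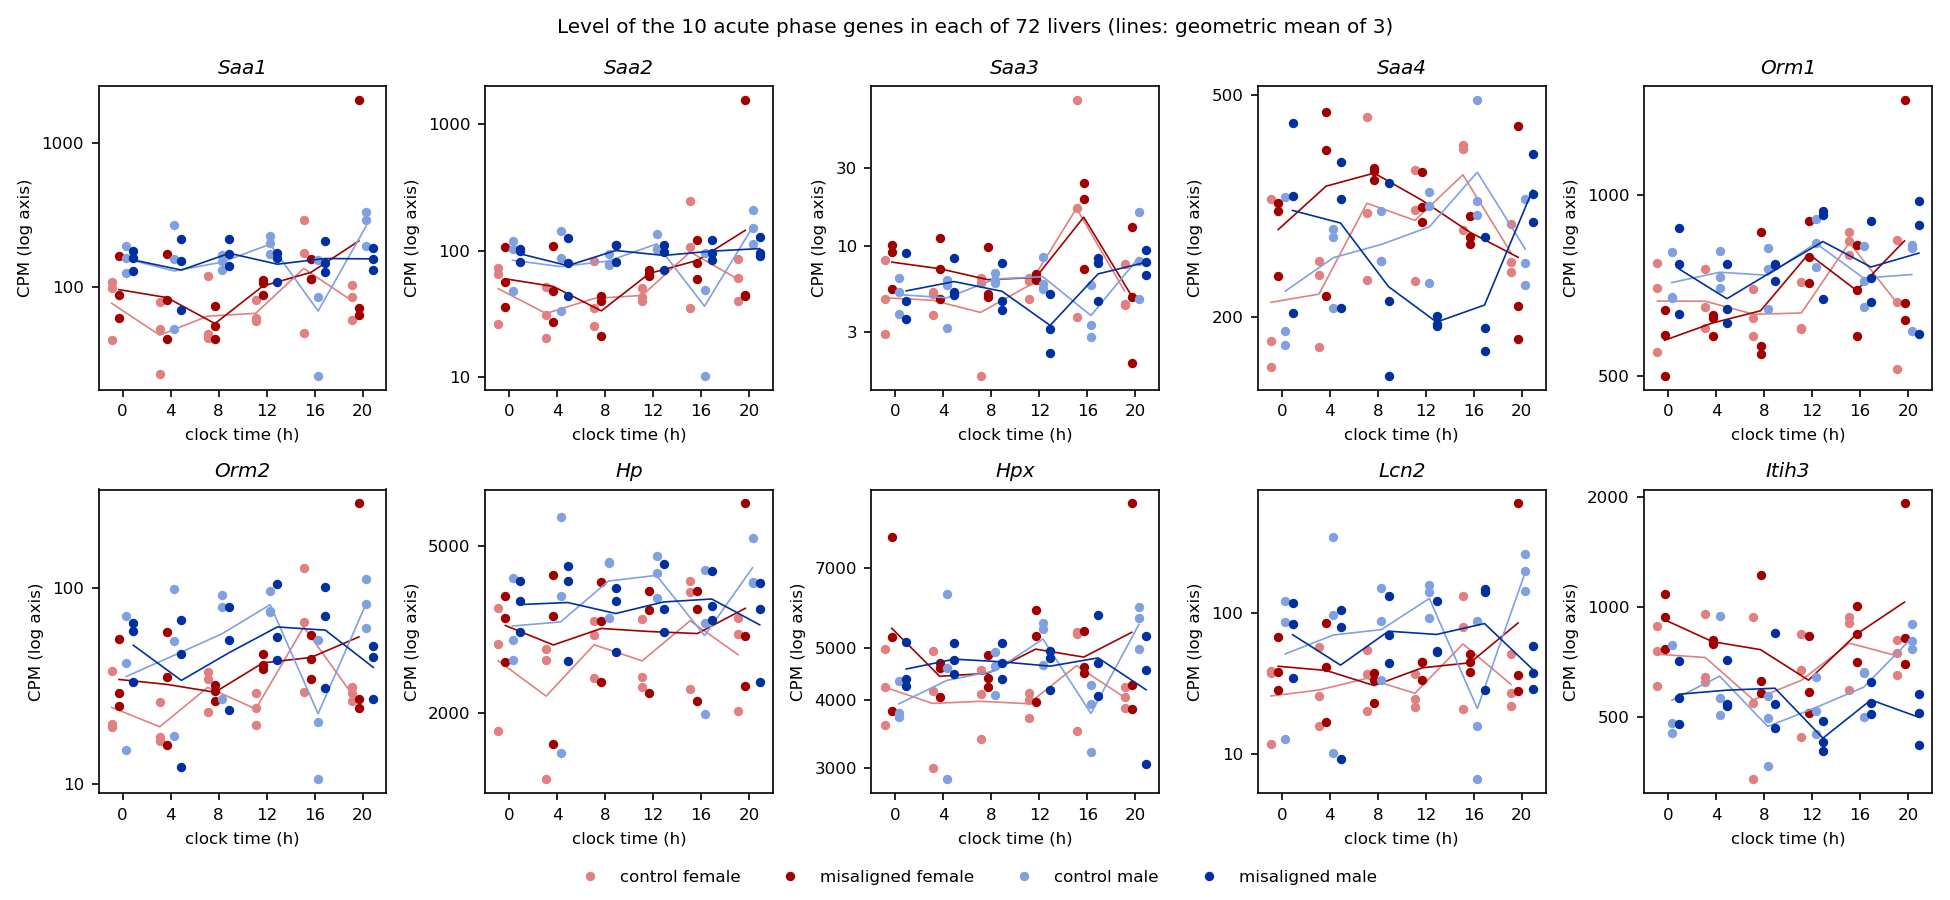
Level of each of the 10 genes (CPM, log axis) against the stated clock time in h, with 1 point per liver, coloured by sex and treatment, and lines through the geometric mean of 3 livers. Saa1, Saa2, Orm2 and Lcn2 share a single high point in misaligned females at 20 h (2002, 1556, 271 and 592 CPM) and a low point in control males at 16 h.

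The first comparison asked whether the mean level over the 6 clock times differed between misaligned and control females. Of the 10 members 0 passed the threshold, at a background of 0.00664% of all tested genes (edgeR's quasi-likelihood test, adjusted by Benjamini and Hochberg over 15066 genes, threshold 0.05, as in all tests below), although 4 had an unadjusted p under 0.05. All 10 differences were positive, with a median log2 difference of 0.26 against -0.00104 for all tested genes.
Among the amyloid A genes, Saa1 lay at 24.8 to 292 CPM with a median of 69.4 in control females and at 43.5 to 2002 CPM with a median of 88.4 in misaligned females. Those ranges overlapped, and the mean of 200 ± 451 CPM (SD, n = 18) against 87.5 ± 62.4 CPM rested on 1 liver. The fitted log2 difference was 0.71 ± 0.28 (SE, adjusted p = 0.66).
Saa2 had medians of 46.8 CPM in control and 58.4 CPM in misaligned females, over overlapping ranges of 20.3 to 246 and 21.4 to 1556 CPM, and a log2 difference of 0.63 ± 0.30. For Saa3 it was 0.22 ± 0.24, and for Saa4 0.17 ± 0.12.
Hpx had the smallest unadjusted p of the members (0.00606, adjusted p = 0.624). Its median was 4112 CPM in control females (3001 to 5342) and 4594 CPM in misaligned females (3826 to 9225), and the log2 difference was 0.27 ± 0.09. It was positive at all 6 clock times. Hp differed by 0.24 ± 0.14, Orm2 by 0.53 ± 0.27, Lcn2 by 0.57 ± 0.37, Itih3 by 0.26 ± 0.12 and Orm1 by 0.03 ± 0.08.
Without misaligned female replicate 1 at 20 h, 9 of 10 differences were positive, the median fell to 0.13, and 1 member had an unadjusted p under 0.05. Saa1 then differed by 0.15, Saa2 by 0.03, Lcn2 by 0.11, Orm2 by 0.19, Hpx by 0.18 and Orm1 by -0.05.

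In males, 0 of 10 members passed the threshold, at a background of 0%, and 3 of the 10 differences were positive, with a median log2 difference of -0.06 against 0.01 for all tested genes. Lcn2 had the largest difference, -0.46 ± 0.36, which was -0.175 without control male replicate 1 at 16 h. It ran from 6.67 to 343 CPM with a median of 94.3 in control males and from 9.34 to 147 CPM with a median of 64.0 in misaligned males, so the ranges overlapped and the misaligned livers lacked the upper end. The median of Saa1 was 163 CPM among control males and 158 CPM among misaligned males, over 24.2 to 332 and 69.0 to 215 CPM, and its log2 difference was -0.05 ± 0.28. Saa2 differed by 0.06 ± 0.29, Orm2 by -0.09 ± 0.27, Hp by -0.08 ± 0.14 and Itih3 by -0.15 ± 0.12.
The difference between the sexes in the misalignment effect was tested directly, and 0 of 10 members passed, at a background of 0%. All 10 estimates were positive, meaning a higher effect in females, and 8 were positive without misaligned female replicate 1 at 20 h. The largest were 1.03 ± 0.52 for Lcn2 (adjusted p = 0.876) and 0.76 ± 0.40 for Saa1, and Itih3 had the smallest p (0.40 ± 0.17, adjusted p = 0.837 by edgeR's quasi-likelihood test). Without the female liver named above, the estimate was 0.57 for Lcn2, 0.19 for Saa1 and -0.03 for Saa2.

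**Figure D2:**
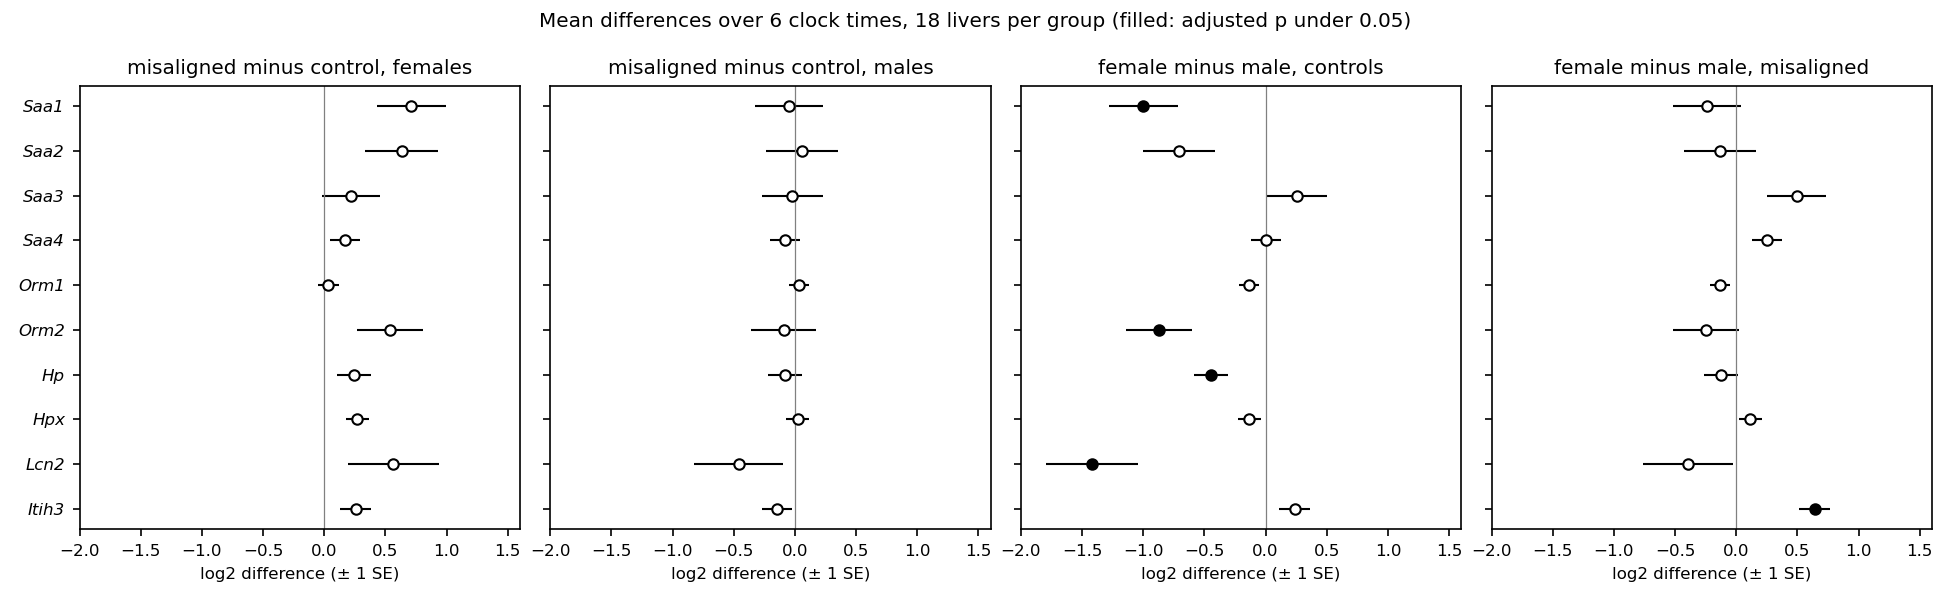
Log2 differences averaged over the 6 clock times for each of the 10 genes (points, with bars of 1 SE; 18 livers per group), for the misalignment effect in each sex and the sex difference in each treatment. Filled points mark the 4 members lower in females among controls and Itih3, higher in females among misaligned mice; open points did not pass the adjusted threshold of 0.05.

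Between control females and control males 4 of the 10 members were called, all lower in females, at a background of 32.9% of all tested genes in either direction and 17% lower in females. The count in either direction is near its background and is no result about the set as a whole. The genes were Lcn2, Saa1, Orm2 and Hp.
Lcn2 lay between 11.9 and 132 CPM in control females, with a median of 32.0, and between 6.67 and 343 CPM in control males, with a median of 94.3. It was lower in females by a log2 difference of -1.42 ± 0.37 (adjusted p = 0.00239), and the ranges overlapped, with control male replicate 2 at 16 h the lowest liver of all.
For Saa1 the medians were 69.4 CPM in control females and 163 CPM in control males, and the log2 difference was -1.002 ± 0.28 (adjusted p = 0.00452).
Orm2 had a median of 27.7 CPM in control females (16.6 to 127) and 67.2 CPM in control males (10.5 to 112), a log2 difference of -0.87 ± 0.27 (adjusted p = 0.00957). Hp had medians of 2887 and 4094 CPM, over overlapping ranges of 1396 to 4118 and 1615 to 5860 CPM, and a log2 difference of -0.45 ± 0.14 (adjusted p = 0.0107).
Each of these 4 genes was lower in females at 5 of the 6 clock times. The exception for all 4 was 16 h, where control female replicates 1 and 2 were high and control male replicate 2 was low. At that time Saa1 stood at 292, 174 and 48.0 CPM in control females and at 154, 24.2 and 84.7 CPM in control males. Lcn2 stood at 132, 78.8 and 20.9 CPM in those females and at 87.9, 6.67 and 15.9 CPM in those males.
Saa2 had a log2 difference of -0.71 ± 0.30 in the same direction and missed the threshold (adjusted p = 0.0602), which it passed when any of 9 single livers was left out and in DESeq2 (adjusted p = 0.0436). The remaining members were not called: Itih3 differed by 0.24 ± 0.12, Saa3 by 0.25 ± 0.25, Orm1 by -0.13 ± 0.08, Hpx by -0.13 ± 0.09 and Saa4 by 0.00 ± 0.12. Leaving out all livers with replicate number 1 left only Saa1 called, and leaving out those with number 3 left only Lcn2 called, while all 4 calls stood when any single liver was left out.
Markers of other cell types were read in the same livers. Their counts stand beside 32.9% of all tested genes called in either direction, 17% lower and 16% higher in control females. Counts near these shares are no result about a cell type. Of 10 stellate cell markers 5 were lower in control females and 0 higher, with a median log2 difference of -0.37 against 0.0065 for all tested genes. Their summed level was 363 to 668 CPM in control females and 409 to 1572 CPM in control males, and none of them was at 0 in most livers. Of the 7 tested neutrophil markers other than Lcn2, 1 was lower in control females (Cxcr2), and Camp and Ly6g were at 0 in most livers. Neutrophil markers without Lcn2 summed to 1.45 to 63.0 CPM in control females and to 0.632 to 15.4 CPM in control males. Of 3 tested adipocyte markers 2 were lower (Cfd and Fabp4), while Adipoq, Lep and Plin1 were at 0 in most livers. Of 12 macrophage markers 5 were higher in control females and 0 lower. Of 9 blood cell genes 7 were higher and 1 lower, with a median log2 difference of 1.51. Of 10 endothelial markers 5 were higher and 0 lower, and of 6 tested cholangiocyte markers 0 were higher and 2 lower. Of 12 T, NK and B cell markers 1 was higher and 0 lower, and of 10 hepatocyte markers 4 were higher and 1 lower. The part of these cells in the members' sex difference was not tested.

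Among misaligned mice 1 of 10 members was called, at a background of 37.7% in either direction and 17.8% higher in females, and that member was Itih3. It ran from 511 to 1922 CPM with a median of 808 in misaligned females and from 403 to 849 CPM with a median of 538 in misaligned males. Females were higher by a log2 difference of 0.64 ± 0.12 (adjusted p = 3.72e-05), at 6 of 6 clock times, although the ranges overlapped. Without the high female liver at 20 h the difference was 0.54 (adjusted p = 0.000163).
The members that were lower in control females had lower medians in misaligned females too. Saa1 had medians of 88.4 CPM in females and 158 CPM in males, Lcn2 of 38.2 and 64.0 CPM, Orm2 of 34.8 and 52.3 CPM and Saa2 of 58.4 and 97.2 CPM. At 5 of 6 clock times Saa1, Saa2, Orm1, Orm2, Hp and Lcn2 were lower in misaligned females, and at 20 h they were higher.
With all livers, the log2 differences were -0.24 ± 0.28 for Saa1, -0.39 ± 0.37 for Lcn2, -0.25 ± 0.27 for Orm2 and -0.13 ± 0.29 for Saa2, and none was called.
Leaving out misaligned female replicate 1 at 20 h raised the calls from 1 to 6, of which 5 were lower in females, beside the 19.9% of all tested genes called lower in females with all livers. That liver was singled out by its high values of these same genes, so the calls without it are a description and no independent support. Saa1 then differed by -0.81 (adjusted p = 0.00235), Saa2 by -0.74 (adjusted p = 0.00857) and Orm1 by -0.22 (adjusted p = 0.016). Lcn2 differed by -0.85 (adjusted p = 0.0448) and Orm2 by -0.59 (adjusted p = 0.0451), and Itih3 stayed higher in females.

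By single clock time, with 3 livers against 3, 0 of the 60 pairs of member and clock time passed in females and 0 of 60 in males, at backgrounds of 0.0133% and 2.71% of all pairs of gene and clock time. The largest differences in females were at 20 h: 3.14 for Saa2 (adjusted p = 0.339), 3.11 for Saa1 (adjusted p = 0.314) and 2.71 for Lcn2. Saa1 stood there at 2002, 63.9 and 71.5 CPM in misaligned females and at 58.9, 85.5 and 104 CPM in control females. Lcn2 stood at 592, 28.1 and 36.6 CPM in misaligned and at 22.0, 27.2 and 51.1 CPM in control females. In each case 1 liver was high, and the other misaligned livers lay within or next to the control range.
In males the lowest adjusted p was that of Lcn2 at 20 h, where control males had 142, 259 and 198 CPM and misaligned males 29.0, 58.1 and 37.8 CPM. Those values did not overlap, and the log2 difference was -2.26 (adjusted p = 0.0916), at a clock time at which 14.4% of all tested genes were called and 6.07% were called lower in misaligned males. Itih3 followed at 20 h, with 765, 805 and 899 CPM among control males against 418, 513 and 577 CPM among misaligned males, which did not overlap either and gave -0.71 (adjusted p = 0.104).

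A 24 h rhythm was tested in each sex and treatment as a cosine curve over the clock times. In control females 1 of 10 members was called, Saa3, at a background of 12% of tested genes. Its amplitude from mean to peak was 1.27 ± 0.28 on the log2 scale with a peak at 16.1 h (adjusted p = 0.000738). At 16 h the control females had 78.1, 17.1 and 3.68 CPM of Saa3, while their 15 livers of other clock times held 1.61 to 8.24 CPM. Without control female replicate 1 at 16 h the rhythm was not called (adjusted p = 0.436).
In misaligned females Saa1 and Saa2 were called, 2 of 10 at a background of 7.69%. Saa1 had an amplitude of 1.48 ± 0.30 with a peak at 19.8 h (adjusted p = 0.000488) and Saa2 of 1.64 ± 0.31 with a peak at 19.7 h (adjusted p = 0.000225). Saa2 stood at 1556, 44.1 and 44.4 CPM at 20 h in these mice. Without the first of these livers neither was called (adjusted p = 0.81 for Saa1 and 0.728 for Saa2).
Of the members 0 were rhythmic in control males, at a background of 10.8%, and 0 in misaligned males, at 0.00664%. Saa1 and Saa2 had amplitudes of 0.18 ± 0.30 and 0.20 ± 0.31 in control males.
A change of rhythm with misalignment was called for 0 of 10 members in females, at a background of 0.192%, and for 1 of 10 in males, at 9.23%. That member was Saa4 (adjusted p = 0.0199). Control males had 316, 230 and 334 CPM of Saa4 at 12 h and 304, 322 and 490 CPM at 16 h, while misaligned males had 194, 192 and 201 CPM at 12 h and 174, 191 and 278 CPM at 16 h. At 0 h the order was turned, with 188, 178 and 328 CPM among control males against 446, 330 and 203 CPM among misaligned males. The fitted peak lay at 14.4 h in control males, with an amplitude of 0.26 ± 0.11, and at 23.97 h in misaligned males, with an amplitude of 0.42 ± 0.11. Without misaligned male replicate 1 at 0 h the change was not called (adjusted p = 0.0552). The sex difference of the rhythm change was called for 0 of 10 members, at a background of 1.73%.

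**Figure D3:**
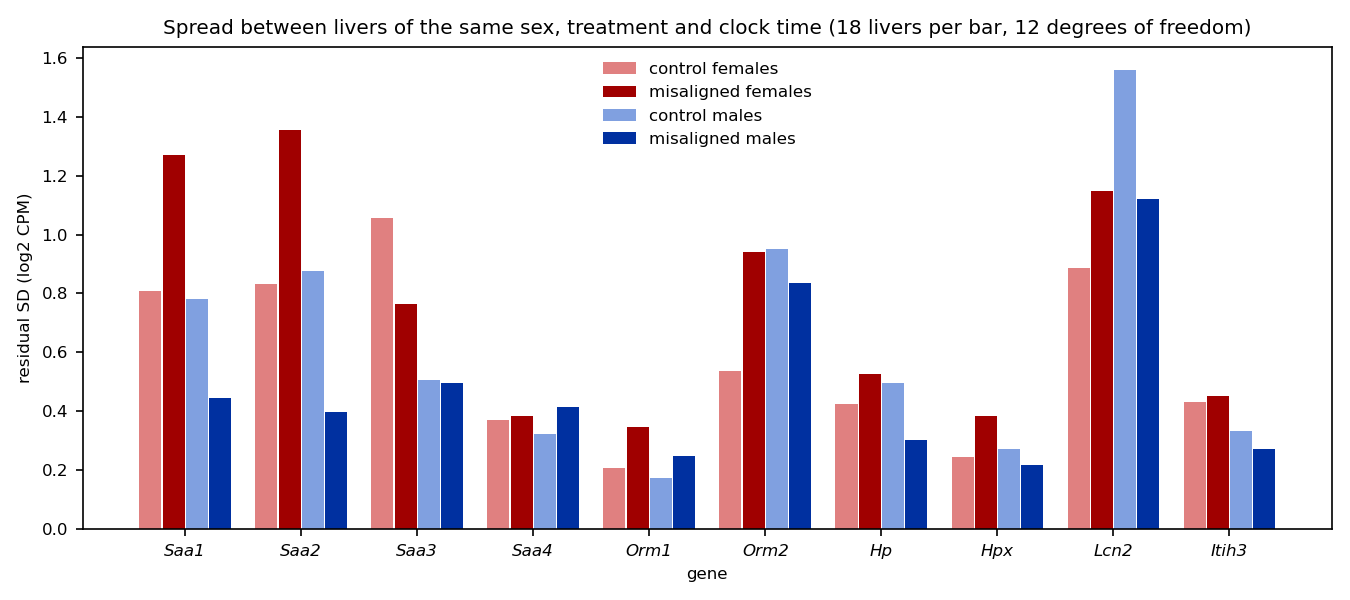
Residual SD of log2 CPM between livers of the same sex, treatment and clock time, 1 bar per sex and treatment for each gene (18 livers and 12 degrees of freedom per bar). Lcn2 in control males is the highest bar at 1.56, Saa1 and Saa2 reach 1.27 and 1.35 in misaligned females and stand at 0.44 and 0.40 in misaligned males, and Orm1 and Hpx reach at most 0.35 and 0.38.

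Livers of the same sex, treatment and clock time differed widely in these genes. The residual SD of log2 CPM was 1.20 for Lcn2, 0.93 for Saa2, 0.88 for Saa1, 0.83 for Orm2 and 0.74 for Saa3, against a median of 0.30 over all tested genes. Among the genes of like mean level, Lcn2 was at percentile 99.9 and Saa3, the lowest of these 5, at percentile 97.6. Hp had an SD of 0.45, Itih3 of 0.38, Saa4 of 0.37, Hpx of 0.29 and Orm1 of 0.25, the last at percentile 61.8 of its like genes.
The high values of Lcn2 came from more livers than those of Saa1 and Saa2. In control males Lcn2 was 343, 10.2 and 96.6 CPM at 4 h and 120, 86.5 and 12.9 CPM at 0 h. Over all groups the SD of Saa2 was 0.68 once misaligned female replicate 1 at 20 h and control female replicate 1 at 16 h were left out, and that of Lcn2 was 1.10 after the same step.

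Many pairs of members varied together from liver to liver within groups. With each group's mean removed, 30 of the 45 pairs of members were correlated over 72 livers by Pearson's r and 29 by Spearman's rho. The p came from 100000 permutations within groups, adjusted over 45 pairs, and the median r was 0.51. Pairs of other genes were not tested, so no share over all genes stands beside these counts. Genes outside the set reached r = 0.87 with a member (Tmem176a with Lcn2), and the counts are not read as particular to the members. Saa1 and Saa2 had the highest r, 0.980 (rho = 0.958), which was 0.965 without the 2 livers farthest from the median. In this and every pair below, the median was that of the pair's earlier gene in the opening list. Orm2 and Lcn2 followed with r = 0.917 (rho = 0.868, and 0.886 without 2 livers).
Lcn2 was also correlated with Hp (r = 0.826, rho = 0.788, 0.787 without 2 livers) and with Saa1 (r = 0.822, rho = 0.759, 0.802 without 2 livers). Hp and Hpx, the scavengers of haemoglobin and haem, had r = 0.816 (rho = 0.810, 0.805 without 2 livers). For Hp with Lcn2 and Hp with Hpx, the livers left out were control male replicate 2 and misaligned female replicate 2 at 4 h. Misaligned female replicate 1 at 20 h stayed in for these pairs. In all 5 pairs the permutation p was 1e-05 for r and for rho, the smallest that the permutations can give, and the adjusted p was 3e-05 for r and 3.46e-05 for rho.
Saa4 had no called correlation with Saa1. Its r with Saa1 was 0.28 (p = 0.172, adjusted p = 0.209, rho = 0.122 with p = 0.429 and adjusted p = 0.482, r = 0.06 without 2 livers). With Itih3 it was 0.53 (p = 0.00048, adjusted p = 0.000982, rho = 0.472 with p = 0.0009 and adjusted p = 0.00193, r = 0.40 without 2 livers).
Within the 4 sets of 18 livers the median r over pairs was 0.63 in control females, 0.68 in misaligned females, 0.55 in control males and 0.41 in misaligned males. Some pairs with Saa4 turned sign between sets. The widest example was Saa4 and Lcn2, with r = 0.77 in misaligned females and -0.71 in misaligned males, a difference that was not tested. Saa4 stayed positive in all 4 sets with Itih3 (0.23 to 0.67) and with Orm1 (0.22 to 0.45). Without the 2 high female livers named above, the median r over the 45 pairs was 0.39 and 26 pairs were called.

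**Figure D4:**
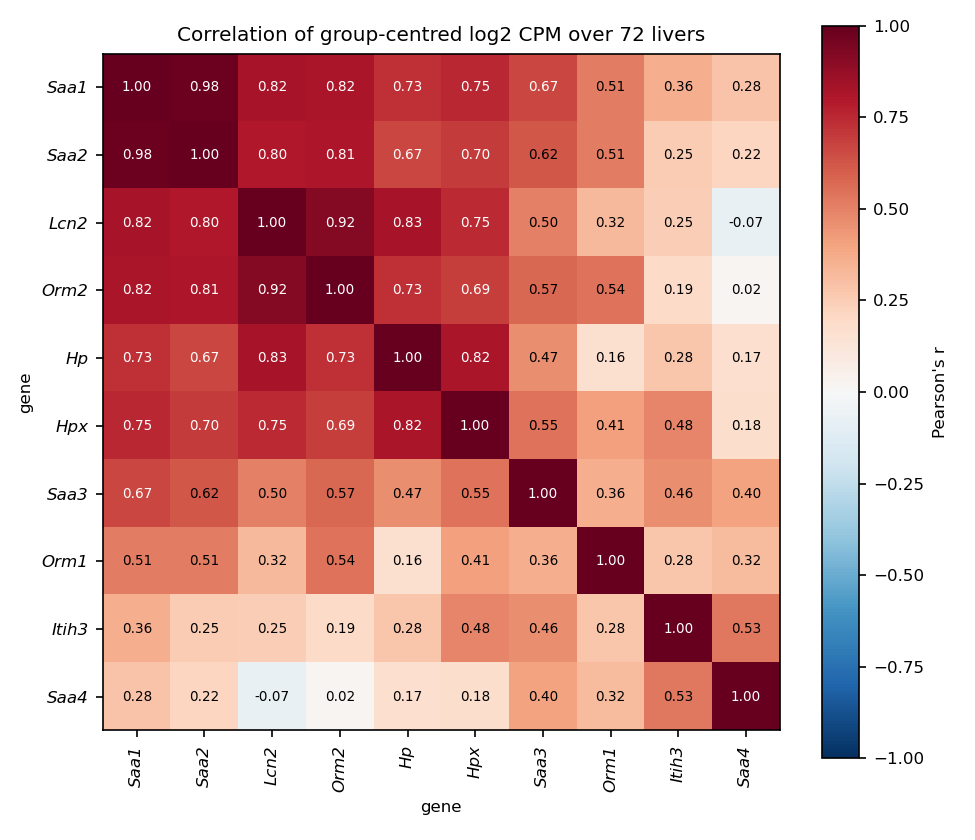
Pearson's r of log2 CPM, with each group's mean removed, between every pair of the 10 genes over 72 livers (colour and printed value). Saa1, Saa2, Lcn2, Orm2, Hp and Hpx form a block between 0.67 (Saa2 and Hp) and 0.98 (Saa1 and Saa2), while pairs of Saa4 with Lcn2 and Orm2 lie near 0.

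The genes outside the set whose group-centred levels were most like a member's are given as a description, over 72 livers and 12924 genes compared. For Saa1 and Saa2 the closest were Cyb561 (r = 0.76 for both) and Steap4 (0.76 and 0.75). For Lcn2 and Orm2 they were Tmem176a (0.87 and 0.81) and Tmem176b (0.86 and 0.80), which also led for Hpx (0.76 for both). Hp was closest to Ctsz (0.84) and Tmem176a (0.83). Itih3 was closest to Itih4 (0.82), another chain of the same protein family, and to the complement genes Hc (0.77) and Cfi (0.76). Saa4 was closest to Cyp3a13 (0.84) and Hrg (0.83), Saa3 to Psmb8 (0.67) and B2m (0.61), and Orm1 to Ambp (0.64).

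Counts in introns, which come mostly from RNA not yet spliced, were read as a separate measure of the same genes. They followed the gene counts over 72 livers with r = 0.965 for Saa1 (rho = 0.941, 0.942 without 2 livers), 0.951 for Hp (rho = 0.931, 0.937 without 2 livers) and 0.945 for Lcn2 (rho = 0.936, 0.922 without 2 livers). The lowest r was 0.597 for Orm1 (rho = 0.603, 0.497 without 2 livers), and the other 6 members lay between 0.697 for Saa3 and 0.871 for Saa4. In all 10 genes p was 1e-05 for r and for rho, the smallest possible, and so was the adjusted value over 10 genes.
In misaligned female replicate 1 at 20 h the introns of Saa1 held 1408 counts, against 36 and 40 in the other livers of its group. Lcn2 introns held 231 counts against 14 to 19, Saa2 introns 225 against 5 to 9 and Orm2 introns 304 against 101 to 140. Reads across Saa1 splice junctions numbered 16658 in that liver and 559 to 581 in the others. The introns of Saa3 were highest in control female replicate 1 at 16 h, with 55 counts against 8 to 12 in its group. Antisense counts were at most 0.216% of a member's counts.

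**Figure D5:**
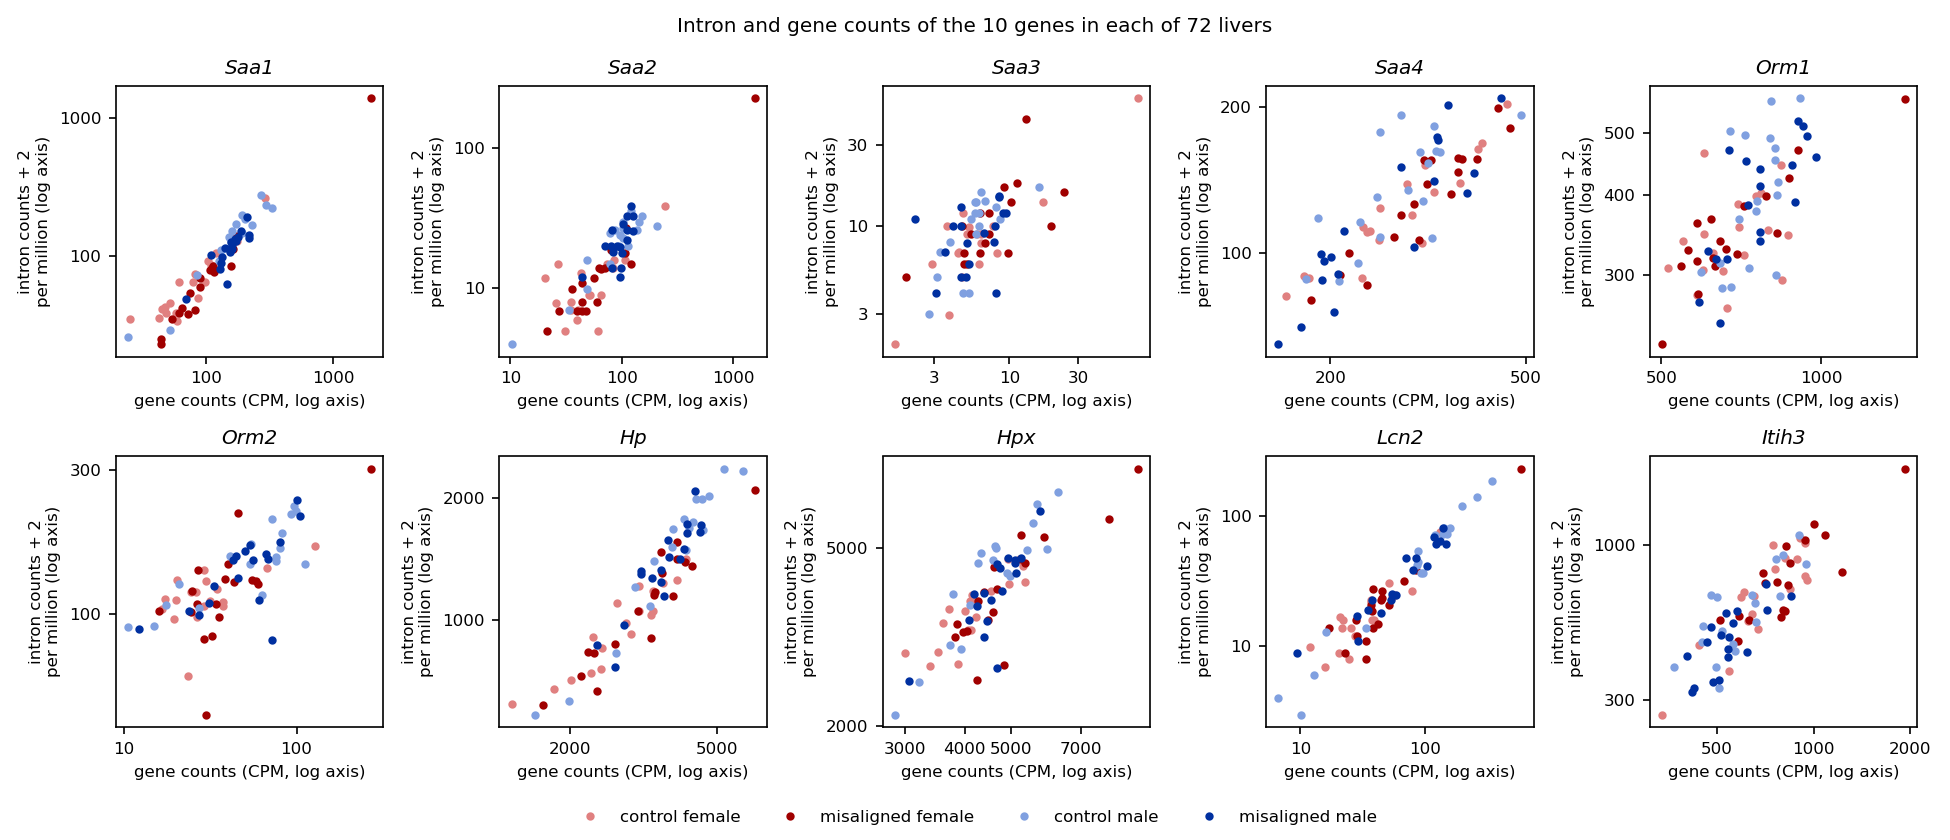
Intron level (CPM of the intron table, with a prior count of 2) against gene level (CPM) for each of the 10 genes (log axes, 1 point per liver, coloured by sex and treatment). The points of Saa1, Lcn2 and Hp follow a line up to the highest liver, and those of Orm1, whose introns held 235 to 568 counts, cover a narrow range.

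Many of the values above were set by 3 livers, and the other genes measured in them are given here. For misaligned female replicate 1 at 20 h, each member was set against the arithmetic mean CPM of the other livers of its group. Saa1 was 29.6-fold, Saa2 35.2-fold, Lcn2 18.3-fold and Orm2 10.6-fold above this mean. The remaining members were 2.24-fold (Saa4 and Orm1) to 3.83-fold (Saa3) above it. Some other inducible liver genes were at their highest of all 72 livers in it: Fga at 9524 CPM, Itih4 at 6586 CPM, Fgl1 at 1664 CPM, Serpina3n at 933 CPM, Lrg1 at 444 CPM, Stat3 at 231 CPM and Mt2 at 158 CPM. They were named after their values were seen, and their share of the lists is not given. Not every inducible gene was high in this liver: Hamp, which encodes hepcidin, stood below its mean over the misaligned females, as given under Other observations. The summed markers of macrophages were 802 CPM there (rank 14 of 18 misaligned females, 588 to 1393 CPM) and those of neutrophils, without Lcn2, 8.04 CPM (rank 5 of 18, 1.78 to 14.0 CPM), with Ngp and Ltf at 0 in that liver and Ly6g at 0 in 64 of 72 livers. Il6 was at 0 in 38 livers and reached 0.357 CPM at most.
In control female replicate 1 at 16 h, where Saa3 was highest, the macrophage markers summed to 3016 CPM against a median of 925 CPM in control females, and the blood cell genes to 954 against 351 CPM, both the highest of that set. Clec4f, a Kupffer cell marker, stood at 372 CPM and Tnf at 5.24 CPM, each the highest of 72 livers. Endothelial markers were the highest of that set too, at 651 CPM. Stellate cell markers (642 CPM) and T, NK and B cell markers (143 CPM) were at rank 2 of 18. Neutrophil markers, without Lcn2, were at rank 3 (13.1 CPM). Hepatocyte markers summed to 99826 CPM, rank 17 of 18, adipocyte markers to 1712 CPM, rank 16, and cholangiocyte markers to 52.3 CPM, rank 18. The part of these cells in the Saa3 value was not tested.
In control male replicate 2 at 16 h, the lowest liver for 4 members, Steap4 (90.3 CPM), Mt1 (1.53 CPM), Mt2 (0.721 CPM) and Socs3 (1.98 CPM) were also the lowest of 72, while the hepatocyte markers summed to 109817 CPM, rank 4 of 18.

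The same comparisons were read in the other genes of the response, from lists written out with the members. Of 30 other positive acute phase genes, 0 were called for misalignment in females (25 of the differences were positive) and 0 in males (4 positive). The median log2 difference was 0.05 in females and -0.11 in males, against -0.001 and 0.006 for all tested genes. The sex difference of this effect was called for 0 of the 30. The list was not read without misaligned female replicate 1 at 20 h, the highest liver for several of its genes. In the sex difference, 16 were higher and 5 lower in control females, and 20 higher and 1 lower in misaligned females. Fgl1 was higher in females by a log2 difference of 1.43 ± 0.17 in controls and 1.73 ± 0.17 in misaligned mice, Itih4 by 0.77 ± 0.09 and 1.08 ± 0.09, and C3, the central complement protein, by 0.75 ± 0.09 and 1.04 ± 0.09 (edgeR, largest adjusted p of the 6 tests 1.22e-09). The sex counts of all lists here stand beside 32.9% of all tested genes called in either direction in controls and 37.7% in misaligned mice.
Of 13 negative acute phase genes, whose products fall in plasma during inflammation, 10 were called in each treatment, 8 higher and 2 lower in females. Serpina6, which encodes the corticosteroid carrier of plasma, was higher in females by 1.76 in controls and 1.45 in misaligned mice, and Apoa4 was lower by log2 differences of -2.43 and -2.40.
Of 23 tested genes of the IL-6, IL-1 and TNF ligands, receptors, kinases, STATs and their inhibitors, 0 were called for misalignment in either sex. In the sex difference 7 were higher and 3 lower in control females, and 8 were higher and 1 lower in misaligned females. The inhibitors Socs2 and Cish, feedback genes of cytokine and growth hormone receptors, were both higher in control females by 1.33, and the receptor gene Lifr by 0.58.
Among 24 genes of NF-kappaB, C/EBP, AP-1 and liver transcription factors, 3 were higher and 5 lower in control females and 4 in each direction in misaligned females. Jun was lower in females, at -0.88 and -0.75, and Hnf4a higher, at 0.20 and 0.34. Of 17 glucocorticoid receptor targets 2 were higher and 3 lower in control females, and 3 higher and 4 lower in misaligned females, with Cdkn1a at -1.47 and -0.90. In controls the calls of these 3 lists (10 of 23, 8 of 24 and 5 of 17) lie near the background, and no result about the lists is read from them. None of these 3 lists held a gene called for the mean misalignment effect in either sex.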

How the data were processed

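STAR 2.6.0c and the build GRCm38 are listed in the submitters' processing notes. The deposited tables hold whole-number read counts per gene, intron or splice junction, sense or antisense, in a version labelled MIN and a larger version labelled MAX, per the file headers, and how the versions differ is not given in the sources used here. The authors' counts had nearly equal totals between libraries, so totals say little of the original depth. MIN sense gene counts were the main measure, and MAX counts an alternative. Exon and intergenic tables were not used here.

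After filterByExpr, given the 24 groups, genes were tested in edgeR 4.0.16 (R 4.3.3; TMM factors 0.836 to 1.17, robust quasi-likelihood, 1 mean per group), and rhythms as a cosine and sine of 24 h per sex and treatment. Tests were 2-sided. SE is the log2 difference divided by the root of F, and log2 CPM used a prior count of 2. The fits were tested on simulated data. All 10 members were named. Of each other list, genes with the smallest p were named, and per member the 3 genes most like it were taken, predicted genes and pseudogenes left out. Members and lists were chosen with earlier results of these data known. Alternatives were other size factors, filters and tools (limma-voom of limma 3.58.1, DESeq2 1.42.0), MAX counts, a replicate block and leaving out livers. The older dispersion estimate, leaving out the 2 highest female livers or the lowest control male liver, and fits on part of the libraries were chosen after seeing the data. Figures used matplotlib 3.10.9.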

Additional observations from a re-analysis of the deposited data

Results flagged for a closer look

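Reads on the strand opposite to Saa1 and Saa2, which no comparison used, were more numerous in a misaligned liver than in any control liver. Saa1 had up to 12 antisense counts in a misaligned female liver, against at most 7 in a control liver. Saa2 had up to 9 in a misaligned female liver, against at most 3 in a control liver. Both highest counts came from misaligned female replicate 1 at 20 h, the liver with the highest sense counts of these genes, and over all livers antisense counts were 0.063% of the Saa1 and 0.0521% of the Saa2 counts.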

How the results depend on the processing

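Most counts of called members kept within 1.5 times of their main value. Many of these main values were 0, and a 0 that stayed at 0 was counted as kept. In control females, rhythm calls were 0 with limma-voom and without the 2 highest female livers, and 0 to 2 when a replicate number or any single liver was left out. In misaligned females they were 0 with limma-voom and without those 2 livers, and 0 to 2 when leaving out a number or a liver. The rhythm change in males was called for 0 members with a free mean per clock time, and for 0 to 1 when a number or a liver was left out. The sex difference in controls was called for 1 to 4 members when a replicate number was left out. In misaligned mice it was called for 2 members with total counts, for 6 without the 2 highest female livers, for 1 to 5 when a number and for up to 6 when a liver was left out. By clock time in males, 1 call appeared with total counts (Itih3 at 20 h). Correlated pairs numbered 17 to 24 when a number was left out, 6 within misaligned females, 19 within control males and 9 within misaligned males. The cause was not tested, other than that these fits hold fewer livers.

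Directions turned only for differences that were not called with all livers. Leaving out 1 replicate number at a time, the misalignment effect in females ran from -0.153 to 0.828 for Lcn2, from -0.0514 to 0.0901 for Orm1, from -0.0553 to 0.959 for Saa1 and from -0.131 to 0.857 for Saa2, each negative without number 1. For Orm1 it was -0.0482 without the 2 highest female livers, and -0.0489 to 0.0665 when any single liver was left out. Among misaligned mice the difference between females and males then ran from -0.347 to 0.0337 for Hp, from -0.0259 to 0.225 for Hpx and from -0.939 to 0.114 for Saa2, which was called without number 1. In controls that of Saa3 was -0.0259 without the 2 highest female livers and -0.0204 to 0.357 when any single liver was left out. That of Saa4 in controls was -0.0175 with total counts, -0.00635 with limma-voom, -0.00373 with MAX counts, -0.0133 without the 2 highest female livers, -0.0149 without the lowest control male liver, -0.0448 to 0.085 without a replicate number and -0.0617 to 0.0568 without a liver. The cause was not tested.

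Same-numbered livers of different groups did not deviate together on average (mean r = -0.00647 over 36 pairs, 9 over 0.1). Single pairs ran from -0.469 to 0.452, and the mean r for other numbers was 0.00277. No pairing was used in the main fit, although a mean near 0 cannot exclude a link between some livers. With a replicate block 4 members were called between the sexes among controls and 1 among misaligned mice, as without it, and no other count of members changed. Over all genes, counts moved by more than 1.5 times in some alternatives: 1803 rhythmic genes in control females (802 to 2227), 1158 in misaligned females (402 to 1499), 1624 in control males (387 to 1739), 1 in misaligned males (0 to 44), 29 rhythm changes in females (1 to 67), 1391 in males (136 to 2040), 260 sex differences of that change (15 to 421), 5679 sex differences in misaligned mice (3640 to 6313), 1 mean effect in females (0 to 4) and 0 in males (0 to 7). Fits without single livers were not run for the tests by clock time. With 3 livers per group, SEs by clock time were wide, and Saa3 had 20 counts in its lowest liver.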

Other observations

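The liver of misaligned female replicate 1 at 20 h was not at the top for every inducible gene. These genes were picked after their values were seen. Hamp, which encodes the iron hormone hepcidin, stood at 13.1 CPM in it against 280 ± 170 CPM (SD, n = 18) over the misaligned females. Crp, encoding C-reactive protein, was the highest of all livers at 635 CPM, in a range that began at 219 CPM. Apcs, encoding serum amyloid P, reached 287 CPM, against 113 ± 47.2 CPM in misaligned females. Among negative acute phase genes, Serpina6, which had a called 24 h rhythm in misaligned females (edgeR, adjusted p = 0.00156), stood at 340 CPM, against 695 ± 252 CPM in that set. Ttr stood at 5282 CPM, against 6050 ± 599 CPM. Trf was the highest of all livers at 5632 CPM. Of the clock genes, Nfil3 was the highest of 72 livers at 75.7 CPM and Per2 the lowest at 10.03 CPM.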
